A study of Mus musculus with 4 samples.

Results

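Collagen chain genes encode the polypeptides from which all collagens are built. They were taken as every array target whose gene name in the array annotation had the form Col, a number, the letter a and a number. This gave 63 of the 44170 targets on the array, a target being a set of 3 probes against 1 transcript, and 35 of 24171 genes. Expression had been measured in Neuro2a (N2a), a line of mouse neuroblastoma cells grown in DMEM with FBS. By the labels, 2 arrays held total RNA of cells given a scramble siRNA (the control arrays) and 2 arrays held RNA of cells given an siRNA against Men1. Men1 encodes menin, a scaffold protein of histone methyltransferase complexes. Nothing in the labels gives the time after transfection or says that replicates were separate cultures, so p-values measure only the spread between arrays, which may be technical.

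A collagen molecule is a helix of wound chains that are hydroxylated and folded in the endoplasmic reticulum, secreted, trimmed and crosslinked. Fibrillar collagens form the cross-banded fibrils of skin, bone and tendon, and network collagens form sheets such as the type IV scaffold of basement membranes. Type VI collagen forms beaded filaments, FACIT collagens (fibril-associated collagens with interrupted triple helices) sit on fibril surfaces, multiplexins lie at basement membranes, and transmembrane collagens are held in the plasma membrane. Fibroblasts and other mesenchymal cells are the main source of the fibrillar and beaded kinds.

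Values are linear array intensities as deposited, and a log2 change is Men1 siRNA minus scramble siRNA with its standard error (SE, n = 2 arrays per group). Where a gene had several targets, the one with the highest mean log2 intensity stood for it. A gene passed when the limma p-value, adjusted over all 24171 genes, was under 0.05. With 2 arrays per group the smallest p of an exact permutation test is 0.33. An intensity of 100 served as the lower limit of a readable level. For a group wholly under it, with the other group wholly at or above it, the fold is also given as "at least" against that limit. Array medians lay between 145.9 and 151.2, and between 40.2% and 41.0% of targets were under 100 on each array. The targeted gene, Men1, read 6985 and 6222 on the control arrays, against 2764 and 4109 with Men1 siRNA. Its log2 change was −0.97 ± 0.35 and did not pass (limma adjusted p = 0.314), although the groups did not overlap.

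Of the 35 collagen genes, 6 fell and none rose. Col1a1, Col1a2, Col6a1, Col6a2, Col15a1 and Col18a1 passed in limma with adjusted p between 0.0275 and 0.0408. That is 17.1% of the collagen genes lower, against 0.352% of all genes, and 0 higher, against 0.0372% of all genes. The median log2 change was −0.90 over the collagen genes and 0.06 over all genes, with 26 collagen genes negative and 9 positive. Both Men1 siRNA arrays lay under both control arrays for 20 collagen genes, 57.1% against 21.7% of all genes. They lay above for 3, 8.57% against 25.8% of all genes, and overlapped for the other 12. A log2 change of −1 or less was seen for 15 (42.9% against 8.29% of all genes) and of 1 or more for 2 (5.71% against 6.3%). At an unadjusted p under 0.05 there were 15 lower (42.9% against 7.74%) and 3 higher (8.57% against 6.47%). Leaving out any 1 of the 4 arrays left 0 collagen genes and 0 genes in all past the limma threshold, and the smallest adjusted p of a collagen gene was then between 0.0768 and 0.256. At an unadjusted p under 0.05 those fits held 13 to 18 collagen genes and 2105 to 3357 genes in all. The 6 genes stayed negative in each of those fits, as they had to, because both Men1 siRNA arrays lay under both control arrays for each.

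**Figure D1:**
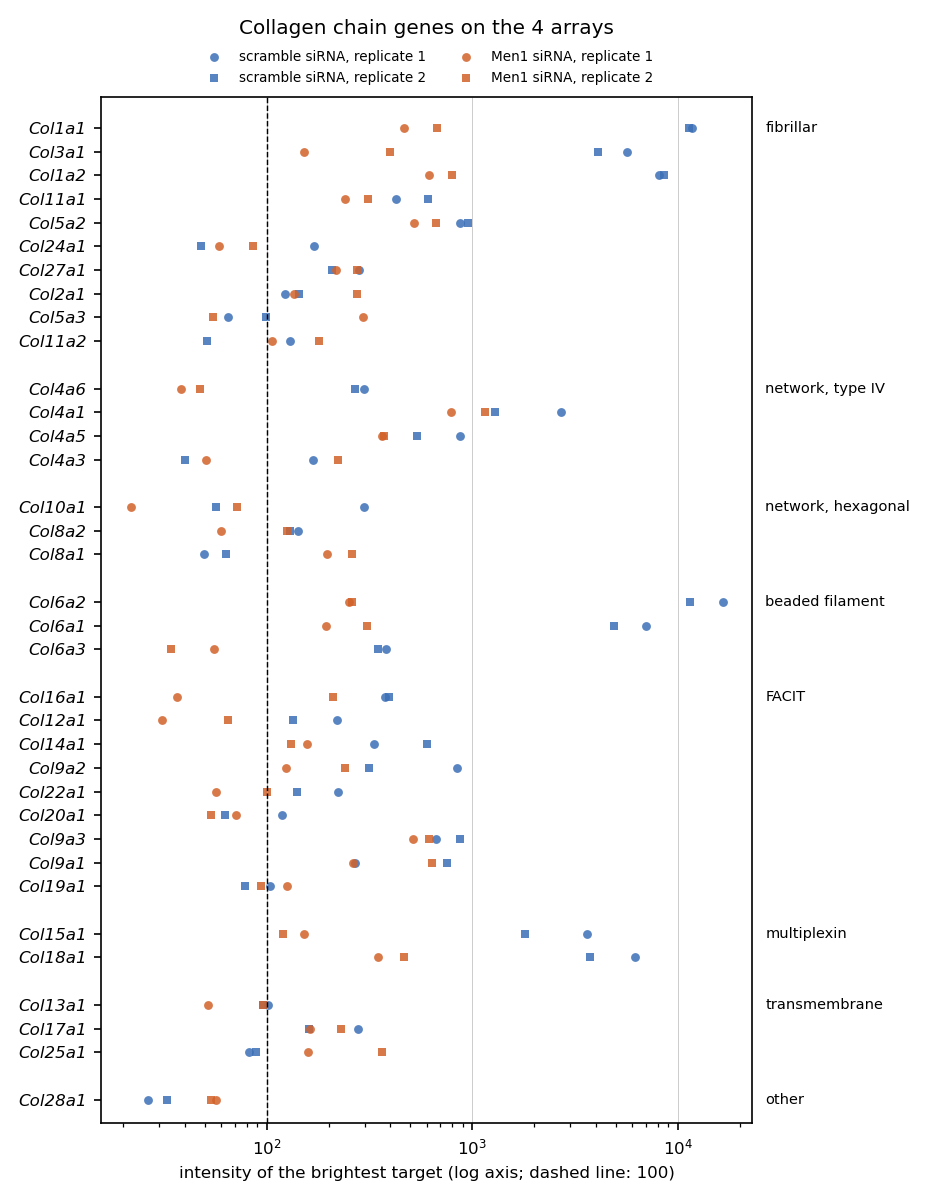
Intensity of the 35 collagen genes (rows, by class) on each of the 4 arrays, on a log axis, with blue for scramble siRNA, orange for Men1 siRNA, circles for replicate 1 and squares for replicate 2. The dashed line is an intensity of 100, and the 6 genes that fell, like Col3a1, which did not pass, have both blue points at 1806 or above and both orange points at 795.4 or below.

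Type I collagen, the main fibril-forming collagen of skin, bone and tendon, is made of the chains encoded by Col1a1 and Col1a2. Col1a1 read 11714 and 11357 on the control arrays, against 465.5 and 670.4 with Men1 siRNA. The replicates of each group lay close together and far from the other group. It fell by 4.37 ± 0.34 on the log2 scale, a ratio of geometric means of 20.6 (limma adjusted p = 0.0327). Col1a2 read 8070 and 8568 on the control arrays, against 613.9 and 795.4 with Men1 siRNA. It fell by 3.57 ± 0.32, a ratio of 11.9 (limma adjusted p = 0.0347), with both Men1 siRNA arrays again well below both others.

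Col3a1 encodes the chain of type III collagen, which joins type I in the fibrils of distensible tissues. It read 5693 and 4094 on the control arrays, against 152.3 and 396.2 with Men1 siRNA. The log2 change of −4.30 ± 0.53 was about as large as that of Col1a1, but the Men1 siRNA arrays lay further apart and it did not pass (limma adjusted p = 0.0577). Col11a1, a chain of the type XI collagen of cartilage fibrils, read 426.9 and 612 against 241.1 and 311.3, a log2 change of −0.90 ± 0.36. Col5a2, a chain of the type V collagen that nucleates fibrils, read 873.6 and 951.6 against 520.3 and 665.9, a log2 change of −0.63 ± 0.32. In both genes the groups did not overlap and neither passed. Col11a2, the partner chain of type XI, read 130.1 and 51.0 against 105.9 and 180.3, and the groups overlapped (0.76 ± 0.55). The remaining fibrillar chains also overlapped, with log2 changes of 0.54 for cartilage Col2a1, 0.66 for Col5a3, −0.35 for Col24a1 and 0.01 for Col27a1. For Col5a3 both control arrays and 1 Men1 siRNA array were under 100, so no fold is given. Over the 10 measured fibrillar genes the median was −0.49, with 2 past the threshold, and the chains other than those of types I and III lay between −0.90 and 0.76.

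The name search returned 3 beaded filament genes, the chains that make up the common form of type VI collagen, a pericellular microfibril. Col6a2 read 16578 and 11421 on the control arrays, against 251.9 and 259.8 with Men1 siRNA. It fell by 5.75 ± 0.34, the most negative value of the 35 genes and a ratio of geometric means of 53.8 (limma adjusted p = 0.0275). Col6a1 read 6982 and 4872 against 194.7 and 308.7, and fell by 4.57 ± 0.39, a ratio of 23.8 (limma adjusted p = 0.0346). Col6a3, the long chain that completes the molecule, read 380.2 and 348.8 against 55.1 and 34.3. Both of its Men1 siRNA arrays were under 100, so it was at least 3.64-fold lower, with a fitted change of −3.07 ± 0.37 that did not pass (limma adjusted p = 0.0521). At the brightest target the groups did not overlap for any of these 3 genes, whose median was −4.57. The other targets of Col6a3 had −0.74 and −0.72, with overlapping groups. As the mean of its 3 targets Col6a3 had −1.51 (limma adjusted p = 0.125). The dimmest target of Col6a2, at −1.01, overlapped as well. The type VI chains Col6a5 and Col6a6, listed on the array under older names, are not among these 3 genes. Col6a5 was at least 2.23-fold higher without passing (limma adjusted p = 0.322).

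Both multiplexin genes fell. Col15a1 and Col18a1 encode the core chains of basement membrane proteoglycans, and the end of the Col18a1 chain is released as endostatin, an inhibitor of vessel growth. Col15a1 read 3611 and 1806 on the control arrays, against 151.6 and 120 with Men1 siRNA. The scramble siRNA arrays differed from each other, yet the lower one stood far above both Men1 siRNA arrays. It fell by 4.24 ± 0.44 (limma adjusted p = 0.0403). Col18a1 read 6193 and 3744 against 347 and 464.3, and fell by 3.58 ± 0.39 (limma adjusted p = 0.0408). It did not pass after cyclic loess (limma adjusted p = 0.0518) or with the replicate number as a block (limma adjusted p = 0.0630).

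No network collagen passed. In type IV collagen, Col4a6, a chain of a form found in some specialised basement membranes, read 297.5 and 269.9 on the control arrays, against 38.1 and 47.4 with Men1 siRNA. It was at least 2.83-fold lower, with a fitted change of −2.74 ± 0.32 (limma adjusted p = 0.0508). Col4a5, its partner chain, read 875 and 540.4 against 364.8 and 373 (−0.90 ± 0.37). Col4a1, the chain found in nearly every basement membrane, read 2704 and 1294 against 791.3 and 1148 (−0.97 ± 0.47). For these 3 genes both Men1 siRNA arrays lay under both control arrays. Col4a3, a chain of the kidney glomerulus, read 168.7 and 40.2 against 50.8 and 223.1, and its replicates differed more than its groups (0.37 ± 0.94).

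Among the hexagonal network collagens, Col8a1, a chain of the type VIII collagen of vessel walls and the cornea, was the collagen gene with the most positive value. It read 49.2 and 63.6 on the control arrays, both under 100, and 197.3 and 258.7 with Men1 siRNA. It was at least 2.26-fold higher, with a fitted change of 2.01 ± 0.34 that did not pass (limma adjusted p = 0.100). Its partner Col8a2 read 142.1 and 130.4 against 59.6 and 124.9, a change of −0.66 ± 0.44. Both Men1 siRNA arrays lay under both control arrays, and it did not pass. The other target of Col8a2 read 106.2 and 150.1 against 50.3 and 47.3. That target was at least 1.26-fold lower (fitted −1.37) and did not pass either. Col10a1, the collagen of hypertrophic cartilage, read 296.9 and 56.4 against 21.8 and 71.9, with 1 control array above the other 3 arrays and a fitted change of −1.71 ± 0.93. The other control array and both Men1 siRNA arrays were under 100, and the groups overlapped, so no fold is given.

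**Figure D2:**
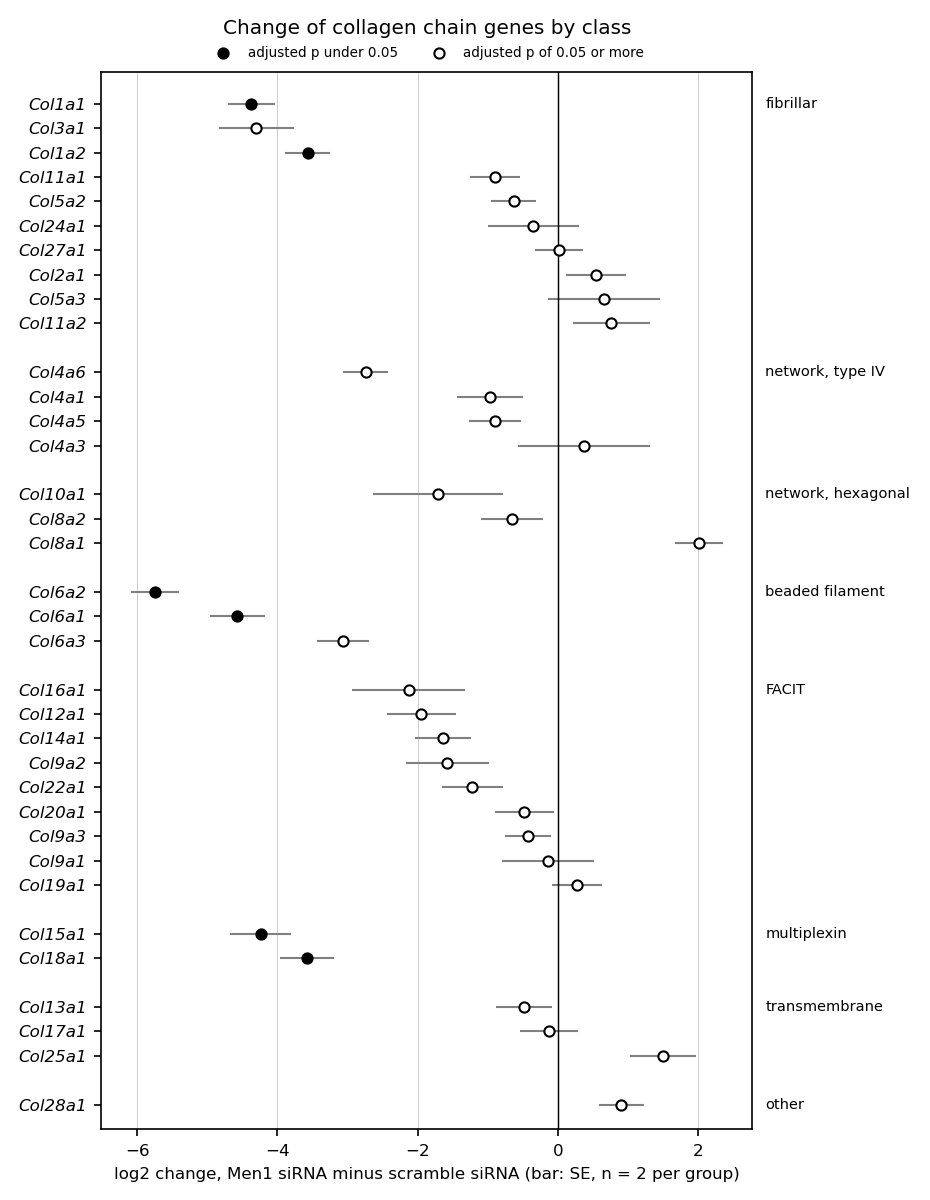
Log2 change of each collagen gene, Men1 siRNA minus scramble siRNA, by class, with bars for the SE of the limma fit (n = 2 arrays per group). Filled points are the 6 genes that passed, from −5.75 (Col6a2) to −3.57 (Col1a2), and open points did not pass, among them Col3a1 at −4.30 and Col8a1 at 2.01.

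The FACIT class had 9 measured genes, none past the threshold, 8 of them negative and a median of −1.22. Col14a1, which coats interstitial fibrils, read 332.5 and 599.3 on the control arrays, against 156.9 and 130.7 with Men1 siRNA (−1.64 ± 0.40, limma adjusted p = 0.191). Col12a1, a fibril-coating chain of tendon and ligament, read 220.3 and 134.9 against 30.8 and 64.7, at least 1.72-fold lower (fitted change −1.95 ± 0.49, limma adjusted p = 0.198). Col22a1, a chain of tissue junctions, read 222.1 and 139.7 against 56.9 and 100.3 (−1.22 ± 0.44). Col9a2, a chain of the cartilage collagen type IX, read 845 and 315.8 against 123.7 and 240.1 (−1.58 ± 0.59). In these 4 genes, and in Col16a1 (−2.13) and Col9a3 (−0.43), the groups did not overlap. The value of Col16a1 was −0.87 without Men1 siRNA replicate 1, −3.38 without Men1 siRNA replicate 2 and −0.15 when its 3 targets were averaged, and that of Col9a2 was −0.87 without scramble siRNA replicate 1 and −2.29 without scramble siRNA replicate 2. The other members, Col20a1 (−0.48), Col19a1 (0.27) and Col9a1 (−0.14), overlapped.

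Transmembrane collagens had no member past the threshold and a median of −0.13. Col25a1, whose shed ectodomain binds amyloid fibrils, is made in neurons. It read 82.2 and 88.4 on the control arrays, both under 100, and 159.6 and 364.9 with Men1 siRNA. It was at least 2.41-fold higher, with a fitted change of 1.5 ± 0.47 (limma adjusted p = 0.269). Its other target was under 100 on all 4 arrays. Col13a1, a chain of the neuromuscular junction, read 100.9 and 96.4 against 51.9 and 96.5, and Col17a1, a hemidesmosome chain, read 278.8 and 160.7 against 162.3 and 229.2. Both overlapped, with changes of −0.48 and −0.13. Col28a1, which belongs to none of these classes, was under 100 on all 4 arrays, at 26.5 and 32.6 against 56.7 and 53.3, so no fold is given. The chains Col5a1, Col4a2, Col4a4, Col7a1, Col6a4, Col21a1 and Col23a1, which the name search did not return, were not analysed here.

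The change depended on which target of a gene was read. The 6 genes that fell were also the 6 collagen genes with a target past the threshold when all 44170 targets were fitted together and adjusted over all of them, where 0.34% of targets passed in either direction. The targets that passed were the same ones that stood for these genes, so this is not a second measurement. For 20 genes more than 1 target was present. All targets were negative for 12 of these genes and all were positive for Col19a1 and Col25a1. Targets differed in sign for Col3a1, Col4a6, Col11a2, Col13a1, Col16a1 and Col27a1.

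Col1a2 shows how far targets could differ: its other targets had −0.49 and −0.31, and as the mean of its 3 targets it had −1.46 and did not pass (limma adjusted p = 0.151). Those targets read between 76.4 and 161.2 and between 35.8 and 70.3 over the 4 arrays, at or near the limit of 100. The other targets of Col6a2 had −2.04 and −1.01, and the mean of its 3 targets was −2.93 (limma adjusted p = 0.0679). The other target of Col3a1 was under 100 on all 4 arrays, with a fitted 0.89. Of the 28 targets that were not the brightest of their gene, 7 were under 100 on all arrays and 2 were at or above it on all, and their median change was −0.46. The brightest target had the lowest log2 change in 11 of the 20 genes and a dimmer target had it in 9, among them Col14a1 (−2.55 at the dimmer target and −1.64 at the brighter), Col9a1 (−1.92 and −0.14) and Col27a1 (−1.66 and 0.01). Col1a1, Col6a1, Col15a1 and Col18a1 had 1 target each, so nothing on the array repeats their measurement.

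**Figure D3:**
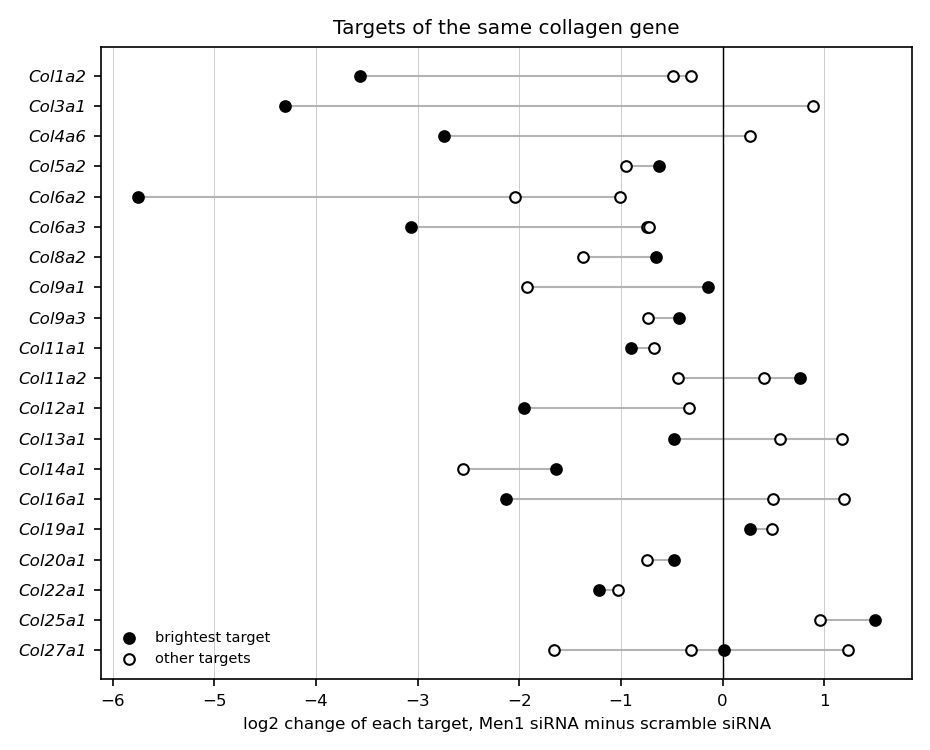
Log2 change of every target of the 20 collagen genes with more than 1 target, Men1 siRNA minus scramble siRNA, with a filled point for the brightest target and open points for the others. For Col1a2, Col3a1, Col4a6, Col6a2 and Col6a3 the brightest target is the most negative, as in 11 of the 20 genes in all, and in the other 9, such as Col14a1, Col9a1 and Col8a2, a dimmer target is lowest.

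Of all 35 collagen genes, 18 were at or above 100 on all 4 arrays, 7 were under 100 on both Men1 siRNA arrays but on neither or only 1 scramble siRNA array, and 3 the other way round. Over all 24171 genes on the array the same counts were 12648, 1664 and 2068. The 6 that fell were all among the 10 collagen genes with a mean log2 intensity of 9 or more. None passed of the 10 from 7 to 9 or of the 15 under 7. Over all genes, 39 of 7954, 45 of 5968 and 1 of 10249 fell in these bands. The part of intensity in the differences between classes was not tested.

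Several of these genes are neighbours on the mouse genome (MM9, the build of the array files). Col6a2 (chr10:76058506-76086059), Col6a1 (chr10:76172304-76188659) and Col18a1 (chr10:76514923-76576450) lie in a row on chromosome 10 and all fell. The measured genes between Col6a1 and Col18a1 were Gm10787 (0.09), Gm3137 (0.36), Pcbp3 (0.41) and Slc19a1 (−0.08), none of which passed. On chromosome 1, Col3a1 (−4.30) and Col5a2 (−0.63) lie 26.8 kb apart. On the X chromosome Col4a6 (−2.74) and Col4a5 (−0.90) lie 1.59 kb apart, so adjoining collagen genes did not always have values of like size. Of the others that fell, Col1a1 lies at chr11:94797583-94813170, Col1a2 at chr6:4455716-4490731 and Col15a1 at chr4:47221219-47325160. Neighbours were looked up after the values had been seen.

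Promoter sequence is shown for 3 of the genes that fell, the chromosome 10 neighbours Col6a1 and Col6a2 with the largest falls, and Col1a2 of type I collagen. Each run is 5′ to 3′ on the gene's strand, from RefSeq on GRCm38.p6, and covers 250 bases before an annotated start and the first 30 after it. Capitals mark matches on either strand to the letters of 3 common promoter motifs. The TATA box was searched as TATAAA. The box bound by nuclear factor Y was searched as CCAAT. The GC box, bound by Sp1 family factors, was searched as GGGCGG, and some of its matches overlap in Col6a2. The windows are chr6:4505368-4505647 on the plus strand for Col1a2, chr10:76726015-76726294 on the minus strand for Col6a1 and chr10:76623375-76623654 on the minus strand for Col6a2, the first listed of its 2 windows.
Col1a2: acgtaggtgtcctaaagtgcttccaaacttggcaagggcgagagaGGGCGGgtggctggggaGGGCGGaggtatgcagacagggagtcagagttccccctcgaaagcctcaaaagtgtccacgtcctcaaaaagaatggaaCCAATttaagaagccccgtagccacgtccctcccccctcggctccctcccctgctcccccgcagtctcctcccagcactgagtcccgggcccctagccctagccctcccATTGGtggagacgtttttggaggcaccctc
Col6a1: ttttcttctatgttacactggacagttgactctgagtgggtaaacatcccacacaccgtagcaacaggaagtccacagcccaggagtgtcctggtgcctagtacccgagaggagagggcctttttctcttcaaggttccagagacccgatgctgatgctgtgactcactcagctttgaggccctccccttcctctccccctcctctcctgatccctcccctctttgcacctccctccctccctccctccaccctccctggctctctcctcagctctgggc
Col6a2: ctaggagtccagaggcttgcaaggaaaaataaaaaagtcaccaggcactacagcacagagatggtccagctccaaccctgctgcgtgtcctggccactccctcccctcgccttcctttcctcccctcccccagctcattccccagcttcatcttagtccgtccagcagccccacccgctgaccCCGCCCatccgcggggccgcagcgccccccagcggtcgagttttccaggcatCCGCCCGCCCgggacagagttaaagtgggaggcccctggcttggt

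Windows were present for 27 of the 35 genes and for 5 of the 6 that fell, Col1a1 being the other. The GC box was found in 15 of the 27 genes and in 53.3% of their 30 windows, against 34.7% of all 32851 mouse windows of this length. The nuclear factor Y box was found in 10 of the 27 genes and in 33.3% of windows, against 36.1% of all. The TATA box was found in 5 of the 27, in 16.7% of windows against 13.1% of all. Among the genes that fell, Col1a2, Col6a2 and Col18a1 held a GC box and Col1a2 and Col18a1 the nuclear factor Y box, none held the TATA box, and the windows of Col6a1 and Col15a1 held none of the 3. A match describes letters only.

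The genes that hydroxylate, glycosylate and fold collagen chains were measured for 20 of 21 listed members, and none passed. Of the 20, 17 were negative, with a median of −0.69. Creb3l1, a membrane-bound transcription factor of secretory cells that activates type I collagen genes in bone, read 2354 and 2354 on the control arrays, against 324.3 and 590.6 with Men1 siRNA (−2.43 ± 0.40, limma adjusted p = 0.0938). P3h3 and P3h1, which encode prolyl 3-hydroxylase family proteins, had −1.41 ± 0.33 and −1.14 ± 0.33. Crtap, the partner of P3h1 in the prolyl 3-hydroxylation complex, had −1.42 ± 0.38. Serpinh1, the collagen chaperone HSP47, had −1.10. For 13 of the 20 genes both Men1 siRNA arrays lay under both control arrays, and for 0 above, against 21.7% and 25.8% of all genes.

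For propeptide cleavage and crosslinking, 10 of 13 listed genes were measured, none passed, and the median was 0.04 with 5 negative. Loxl2, a lysyl oxidase that crosslinks type IV collagen, read 278 and 292.7 against 80.2 and 57.9, at least 2.85-fold lower (limma adjusted p = 0.0907). Adamts2, the protease that removes the amino propeptide of fibrillar collagens, read 627.8 and 351 against 84.2 and 165.1 (−1.99 ± 0.49), and the lysyl oxidase genes Loxl3 and Loxl1 had −1.42 and −1.01.

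Of 12 measured fibril-associated proteoglycan and glycoprotein genes of 13 listed, none passed, and the median was −0.46 with 8 negative. Dcn, which encodes decorin, the small proteoglycan that spaces type I fibrils, read 5136 and 7621 against 1269 and 806.5 (−2.63 ± 0.40, limma adjusted p = 0.0852). Bgn, which encodes biglycan, read 2969 and 4221 against 496.1 and 855.2 (−2.44 ± 0.41, limma adjusted p = 0.0989). Lum (lumican) had −2.72 ± 0.82 and Comp, a cartilage glycoprotein, −3.46 ± 1.28, and 1 Men1 siRNA array of each was under 100.

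Of the 4 basement membrane partners, all negative, Nid1 fell. It encodes nidogen, which links type IV collagen to laminin, and read 1714 and 1517 on the control arrays, against 126.1 and 155.4 with Men1 siRNA, so that it fell by 3.53 ± 0.32 (limma adjusted p = 0.0347). Hspg2, which encodes perlecan, had −1.95, and Nid2 was at least 1.58-fold lower (fitted −1.33). Agrn (agrin) had −0.23, and 0.13 as the mean of its targets. Of 10 collagen receptor genes none passed, and the median was 0.01 with 5 negative. Ddr2, a receptor tyrosine kinase for fibrillar collagens, read 172.8 and 370 against 30.4 and 49.4, at least 2.53-fold lower (limma adjusted p = 0.115). Mrc2, an endocytic collagen receptor, had −1.70, and Ddr1 had −0.66. The collagen-binding integrin chain Itga1 had a fitted −1.23, with 1 control array and both Men1 siRNA arrays under 100. Itgb1, the common beta chain of the collagen-binding integrins, had 0.05.

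Markers of other cell types moved on the same arrays. Of 18 fibroblast and mesenchyme markers other than collagens, 15 were negative and the median was −1.56. Their summed intensity lay between 30505 and 32564 on the scramble siRNA arrays and between 12103 and 12674 on the Men1 siRNA arrays. The matrix genes Dpt (dermatopontin) and Mfap5 fell, Dpt by 3.94 ± 0.33 (limma adjusted p = 0.0346) and Mfap5 by at least 9.46-fold (limma adjusted p = 0.0365). The growth factor receptor gene Pdgfra had −0.33, Thy1 had −0.20 and Fap was under 100 on all 4 arrays. Dcn and Lum stand in this list as well as in the proteoglycan list.

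Epithelial markers were negative in 8 of 8, with a median of −4.02 and a summed intensity of 17541 to 26483 against 928.1 to 2010. Of these, Krt8, Krt18, Cdh1 and Cldn3 fell. Over all genes 0.352% fell, and 11009 of 24171 were negative. Endothelial markers were negative in 8 of 8, with a median of −1.88 and a summed intensity of 5579 to 9095 against 1830 to 1925. For 7 of the 8 both Men1 siRNA arrays lay under both control arrays, against 21.7% of all genes. Emcn fell, and Cdh5 had −3.18 without passing (limma adjusted p = 0.0521). Adipocyte markers were positive in 5 of 5, with a median of 2.45, and Fabp4 rose. Immune markers had a median of −1.19 over 5 genes, and astrocyte and oligodendrocyte markers 0.22 over 6, with none past the threshold in either.

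For the labelled cell type, 10 of 13 neuroblast markers were measured, 7 positive and 3 negative, with a median of 0.34. Th, which encodes the enzyme tyrosine hydroxylase of catecholamine synthesis, read between 95.0 and 141.6 over the 4 arrays. Gata2 fell, the only 1 of the 10 past the threshold. The neuronal genes Stmn2 and Chga read 14670 to 24964 and 3178 to 6539 over the 4 arrays. All 6 measured forebrain genes were positive, with a median of 0.58 and none past the threshold. Fewer cells of a type and less collagen RNA per cell cannot be told apart in these bulk samples. The part of these markers in the collagen values was not tested.

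**Figure D4:**
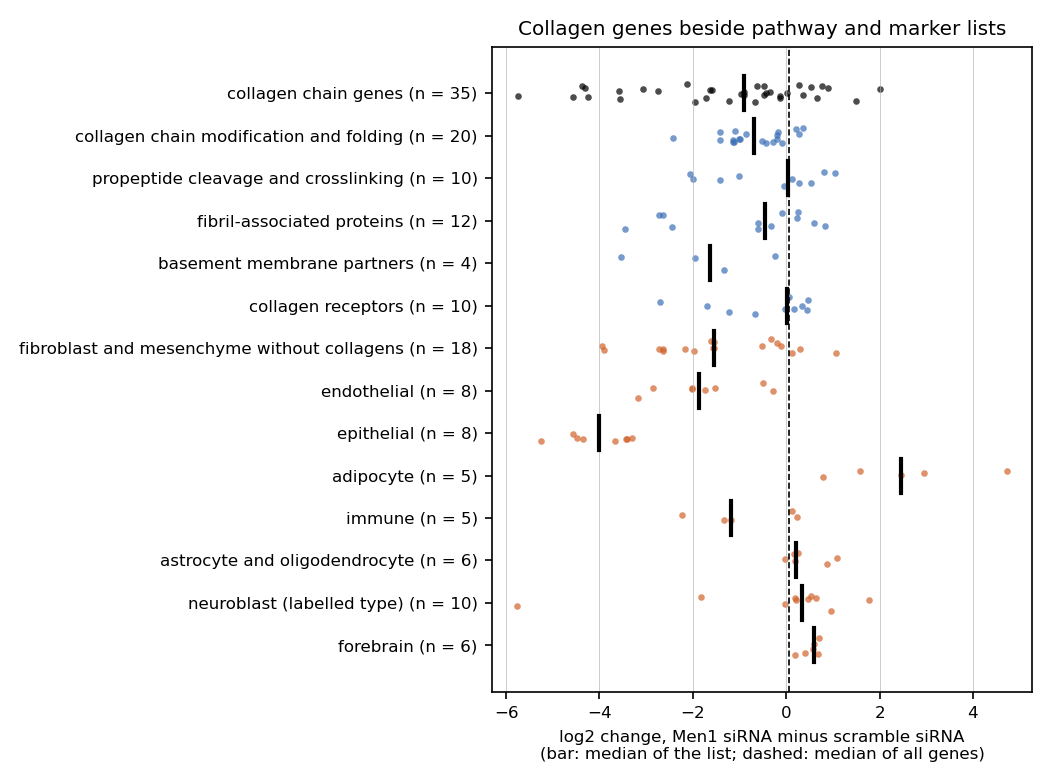
Log2 change of each gene, Men1 siRNA minus scramble siRNA, for the collagen genes (black), 5 lists of collagen pathway genes (blue) and 8 lists of cell type markers (orange), with a bar at each list's median and a dashed line at the median of all genes, 0.06. The collagen median is −0.90, the epithelial median −4.02 and the adipocyte median 2.45.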

How the data were processed

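Men1 siRNA and scramble siRNA transfected N2a cells were compared on 2 arrays each. The deposited files hold linear intensities, 1 per target, which are robust multi-array averages, or RMA values, per the file headers. For the scanner and any background correction, nothing is given in the sources used here. An Agilent array is named in the series text, but the labelling protocol and file format are NimbleGen. The authors' value table holds the 20620 targets that reached an intensity of 100 on all 4 arrays. Its 20 collagen targets equal the per-array values (relative tolerance 1e-04), with the columns of the scramble siRNA replicates exchanged, and it served as an alternative only.

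Symbols were updated through RefSeq by gene ID (21583 of 24204 IDs matched), and no collagen symbol changed. Intensities were taken to log2 with no pseudocount or further normalization and tested in R 4.3.3 with limma 3.58.1 (lmFit, then eBayes with its default prior), fitting group alone, two-sided, with Benjamini-Hochberg adjustment over all genes. The fit was tested on simulated data. Tables and plots were made in Python 3.11.15 with matplotlib 3.10.9, numpy 2.4.6 and pandas 2.3.3. Men1, each collagen gene past the threshold, up to 4 others per class, and up to 4 per pathway list with the smallest p were named with values, and 1 marker is not reported here. The members and lists were chosen with earlier results of these data known. Deviations of same-numbered arrays correlated at −0.17, so replicate numbers were not taken to pair arrays. With 2 arrays per group, crossed numbers give the same size with the opposite sign, so the value cannot show that arrays were unpaired. Image names in the file headers do not all follow the replicate numbers of the labels. The number of arrays limits the precision.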

Additional observations from a re-analysis of the deposited data

How the results depend on the processing

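Only 2 arrays per group were available, no file marks which targets are above background, and calls depended on how spread was estimated. With 1 array left out, the lone array of its group was assumed to vary like the other group. Across those 4 fits the collagen genes past the threshold numbered 0 to 0 and all genes 0 to 0, while 13 to 18 collagen genes had an unadjusted p under 0.05. The log2 change then ranged from −6.02 to −5.48 for Col6a2, −4.63 to −4.10 for Col1a1, −4.99 to −3.61 for Col3a1 and −4.74 to −3.74 for Col15a1. At an adjusted p under 0.01, 0 collagen genes, 0 collagen targets and 0 genes in all passed. Setting intensities under 100 to 100, chosen after seeing the data, left 0 collagen genes and 8 genes in all. With the replicate block, 5 collagen genes (without Col18a1) and 69 of all genes passed, against 6 and 94 without it, and cyclic loess gave 5 (also without Col18a1) and 85. With crossed numbers as a replicate block, also chosen after seeing the data, 0 and 0 passed (20 collagen genes and 3980 genes at an unadjusted p under 0.05). Crossed numbers are the pairing that the replicate labels of the authors' value table give, as its scramble siRNA columns are exchanged.

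All genes past the threshold numbered 289 with a filter on dim genes, 252 with a pseudocount of 32 and 711 with a prior that follows intensity. Col3a1, Col4a6 and Col6a3 then passed beside the 6 in each. The filter kept genes that reached 100 on at least 2 of the 4 arrays. Col4a6 and Col6a3 met it through the control arrays alone, so their passing after the filter is no added support. The authors' value table gave 418 genes past the threshold, 7 of its 18 collagen genes among them, and the median collagen change was −1.28. As the mean of all targets, 4 collagen genes passed, without Col1a2 and Col6a2. The 6 genes kept their sign in every alternative, though it could not turn with 1 array left out, a replicate block or another prior. Normalization moved the median of all genes to between 0.01 and 0.08. Signs turned for genes that did not pass. As the mean of targets, Col13a1 had 0.42, Col27a1 −0.18 and Agrn 0.13, and Col27a1 had −0.01 with cyclic loess. With 1 array left out, Col4a3 ranged from −0.70 to 1.44, Col5a3 from −0.55 to 1.87, Col9a1 from −0.89 to 0.60, Col17a1 from −0.53 to 0.26, Col24a1 from −1.27 to 0.56 and Col27a1 from −0.20 to 0.23. The cause of these differences was not tested.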

Other observations

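Of the collagen genes that the array files list under older names, and which the name search therefore did not return, 3 could be matched by gene ID to a current collagen symbol. Col6a6, a type VI chain, read 75.8 and 121 on the control arrays, against 40.1 and 47.4 with Men1 siRNA, with a log2 change of −1.13 ± 0.37 with groups that did not overlap. Col6a5, another type VI chain, read 88.8 and 80.4 against 362.9 and 137.4, at least 2.23-fold higher. Col26a1 read 372.5 and 442.3 against 649.6 and 441.8 (0.40 ± 0.35). None of the 3 passed in limma, with adjusted p between 0.281 and 0.648.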
